A study of Sus scrofa with 6 samples.

Results

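Genes of actin dynamics and non-muscle actin binding were examined in porcine satellite cells (PSCs) during myogenic differentiation. The set was given as 59 gene symbols covering the nucleation, turnover, capping, crosslinking and non-muscle motor proteins of the actin cytoskeleton. Rows were chosen by matching the pig Ensembl gene identifiers of the expression table to these symbols. The matching used no measured value, though the set itself was drawn up with earlier results of these data known. Of the 28266 rows of the table, 45 carried a member symbol, and 42 of these had a mean level of at least 1 FPKM (fragments normalized for transcript length and library depth) over the 6 libraries and were tested. No row was matched for 14 members, which were ABI2, ACTN1, ARPC4, CNN2, CTTN, ENAH, EVL, FLNA, GSN, LIMA1, MYH10, PFN2, WASF1 and WIPF1, and they were not analysed here.

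Satellite cells are the stem cells of skeletal muscle, which proliferate as myoblasts and then fuse into multinucleated fibres. The PSCs came from limb muscle of newborn male Yorkshire pigs, and per the study's methods all of them had received a negative control (NC) siRNA, a short RNA directed at no pig gene, before the switch to differentiation medium. The 3 NC24h libraries were made at 24 h of differentiation. The 3 NC36h libraries were made at the later time, which is 36 h in the series title and 48 h in the sample labels. The libraries carry the replicate numbers 4, 5 and 6 in each group, and nothing in the labels ties a number to an animal or a culture, so the p-values measure the spread between these libraries, which may be technical. Knockdown libraries were not analysed here.

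Actin exists as monomers and as filaments, and the balance between them is set by binding proteins. The Arp2/3 complex, switched on by WASP and WAVE proteins, starts branched filaments, and formins extend unbranched ones. Cofilins cut and depolymerise filaments, profilins and thymosins hold the monomers, capping proteins block filament ends, and tropomyosins and non-muscle myosin II bind along the filament side. In myoblasts this cytoplasmic network shapes the moving and fusing cell, and during differentiation it gives way to the sarcomeric actin of the myofibril.

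The tables held between 16337486 and 21839399 fragments per library, recovered from the steps of the FPKM values, and 1 fragment of a gene of 1 kilobase was worth 0.0457 to 0.0610 FPKM. NC24h replicate 6 stood apart from the other 2 libraries of its group. Its log2(FPKM + 1) values correlated with them at r = 0.972 and 0.981 over genes, against 0.993 between these 2. The 11 skeletal muscle markers with a row summed to 7710, 6981 and 4855 FPKM in NC24h replicates 4, 5 and 6, and to between 15030 and 16763 FPKM in NC36h. The 11 cell cycle markers summed to 78.2, 107 and 214 FPKM in the NC24h replicates, and to between 25.1 and 32.7 FPKM in NC36h. Within NC24h, replicate 6 was the lowest in 7 of the 11 muscle markers and the highest in the other 4, MYOD1, MYF5, MYF6 and CDH15, and it was the highest in all 11 cell cycle markers. The summed fibroblast markers overlapped between the groups, at 932 to 1003 FPKM in NC24h and 827 to 1033 FPKM in NC36h. Singly, none of the 6 tested overlapped, as held for 63.6% of all genes. Of these 6, 2 were higher, COL3A1 and POSTN, at log2 changes of 0.87 and 0.47. The 3 lower were COL1A2, DCN and LUM, at -0.62, -1.48 and -1.19, and FAP did not pass. The sums of smooth muscle and pericyte markers also overlapped, at 548 to 625 and 556 to 619 FPKM, but 6 of the 7 tested did not overlap singly, with 2 higher and 3 lower, and MYH11 was under 0.1 FPKM in every library. Leukocyte markers summed to 4.82 to 6.41 FPKM in NC24h and 1.92 to 3.14 FPKM in NC36h, with PTPRC, CSF1R and TYROBP under 0.1 FPKM throughout. Of the 2 tested, CD14 was lower, from a mean of 2.59 to 1.18 FPKM, and CD68 did not pass, from 2.30 to 1.28 FPKM. Endothelial markers summed to 18.8 to 23.0 and 33.5 to 38.8 FPKM, of which EGFL7 made up 17.1 to 21.6 and 32.4 to 36.8 FPKM, while PECAM1 did not pass, at a log2 change of 0.04, and KDR and TEK were under 0.1 FPKM. The extraction text of the labels speaks of endometrium, but the 7 epithelial and endometrial markers summed to at most 4.54 FPKM, and EPCAM, KRT8, CLDN4 and PGR were under 0.1 FPKM in every library. CDH1, the 1 tested, was higher, at 0.107 to 0.430 FPKM in NC24h and 2.35 to 4.36 FPKM in NC36h (log2 change 1.79). The part of these marker differences in the results below was not tested, and in bulk RNA fewer cells of a type and less RNA per cell cannot be told apart.

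Most members that differed between the times were lower in NC36h. Of the 42 tested, 22 were lower and 7 were higher (limma on log2(FPKM + 1), Benjamini-Hochberg adjusted over all 14060 genes tested, threshold 0.05), and 13 did not pass. These 29 calls stand beside 50.9% of all genes called in either direction. The lower members were 52.4% of those tested, where 34.4% of all genes were lower. The higher members were 16.7%, against 16.5% of all genes. A fall of at least 1 on the log2 scale was called in 9 members, or 21.4%, against 4.77% of all genes. Of these, only TPM4 (-1.31), CORO1C (-1.29) and CAPZA1 (-1.01) still fell by at least 1 without NC24h replicate 6. ARPC5, FMNL2, CAP1, DIAPH3, CFL1 and MYH9 were then at -0.98 to -0.87. Under median-ratio scaling ARPC5, FMNL2, CFL1 and CAPZA1 fell by less than 1, at -0.94, -0.99, -0.90 and -0.91. No called rise reached 1, against 3.6% of all genes, and the largest was 0.93 (1.10 after median-ratio scaling). The 3 libraries of each group did not overlap in 34 members, or 81.0%, where this held for 63.6% of all genes, and of these members 7 were higher and 27 lower, against 21% and 42.6% of all genes. The median log2 change was -0.35 over the members and -0.16 over all genes tested, so the common level itself lay below 0. With libraries scaled by the median ratio of their genes, which brings the median of all genes to -0.01, 18 members were lower (42.9%) and 8 higher (19.0%), against 22.3% and 23.9% of all genes, and the members' median was -0.20. Without NC24h replicate 6, 22 members were lower and 6 higher, against 34.6% and 17.6% of all genes. Counts by role below rest on 4 to 9 tested members each, and they stand beside the same shares, 34.4% lower and 16.5% higher among all genes. The change of each member is plotted by role, with its standard error.

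**Figure D1:**
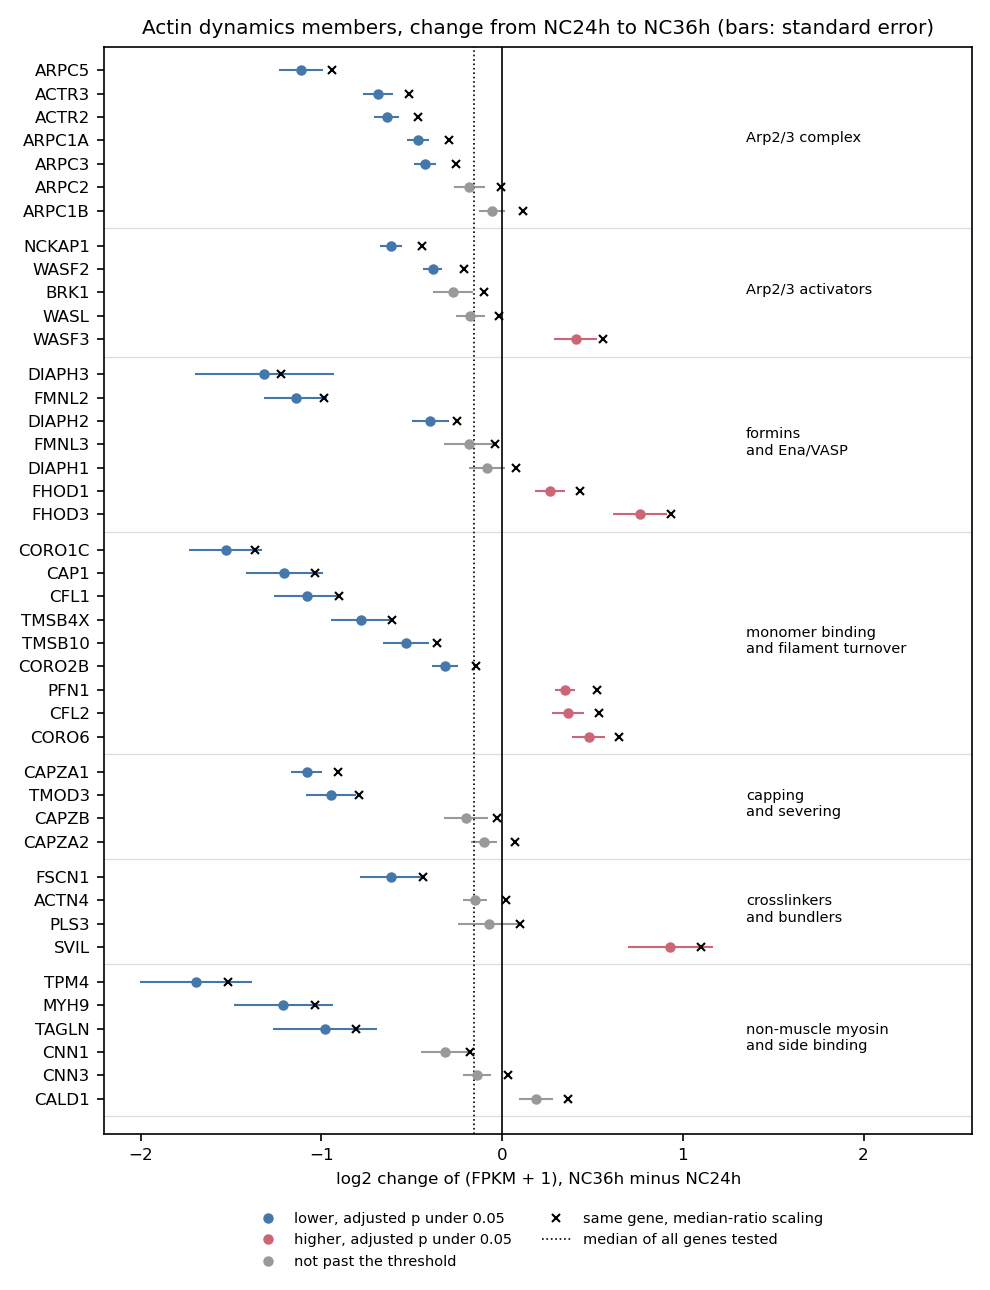
Log2 change of FPKM + 1 from NC24h to NC36h for the 42 tested members, grouped by role, with the standard error of the limma fit as bars; crosses give the same gene after median-ratio scaling, the solid line marks no change and the dotted line the median of all genes tested (-0.16). The values run from -1.69 for TPM4 to 0.93 for SVIL, and the 9 falls of at least 1 are spread over 5 of the 7 roles. Several of these falls were under 1 without NC24h replicate 6 or after median-ratio scaling.

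The Arp2/3 complex nucleates filament branches and has 7 subunits, of which ARPC4 had no row while both paralogues of the ARPC1 subunit did. Of the 7 subunit genes tested, 5 were lower in NC36h. All 7 log2 changes were below 0, with a median of -0.46, where the median of all genes tested was -0.16. Under median-ratio scaling the subunit median was -0.29, with ARPC2 at -0.007 and ARPC1B at 0.11. Their summed level was 856 to 1014 FPKM in NC24h and 675 to 679 FPKM in NC36h, and these ranges did not overlap. The subunits did not fall alike.

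ARPC5 (ENSSSCG00000015560, chromosome 9: 124839062 to 124847906 in RefSeq Sscrofa11.1), a small subunit of the complex, measured 77.9, 79.6 and 105 FPKM in NC24h replicates 4, 5 and 6, and 38.9, 37.7 and 42.0 FPKM in NC36h. Every NC36h library lay well below every NC24h library, and replicate 6 was the highest. The mean went from 87.5 ± 15.3 to 39.6 ± 2.22 FPKM (SD, n = 3), 2.21-fold lower (log2 change -1.11 ± 0.12 SE, limma, Benjamini-Hochberg adjusted p = 0.0012). The actin-related subunits ACTR3 and ACTR2, which form the start of the daughter filament, fell by 0.69 and 0.64 on the log2 scale, ARPC1A by 0.46 and ARPC3 by 0.43, and all 5 were called in each of 15 alternative fits. ARPC2 and ARPC1B were not called, at log2 changes of -0.18 and -0.06, and ARPC1B turned to 0.11 under median-ratio scaling. Levels per length were therefore less even among subunits at the later time. ARPC2 was the highest in all 6 libraries, while the lowest was ARPC1B in NC24h and ARPC5 in NC36h, and the highest exceeded the lowest 5.38 to 5.76 times in NC24h and 6.36 to 7.51 times in NC36h. This order rests on the gene lengths implied by the FPKM values, which were 636 bases for ARPC2, 929 for ARPC1B and 1901 for ARPC5.

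The ARPC1 paralogues are neighbours on chromosome 3 in RefSeq Sscrofa11.1. ARPC1A lies at 6296257 to 6324526 and ARPC1B at 6329737 to 6342641, with 5210 bases and no listed gene between them. The ratio of ARPC1B to ARPC1A was 0.921, 0.986 and 0.974 in the NC24h replicates and 1.36, 1.24 and 1.25 in NC36h. ARPC1A was the slightly higher of the pair in every NC24h library and ARPC1B in every NC36h library.

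Activators of the Arp2/3 complex were mixed. Of 5 tested, NCKAP1 and WASF2 were lower, WASF3 was higher, and BRK1 and WASL did not pass. NCKAP1, a scaffold of the WAVE regulatory complex, fell by 0.61 on the log2 scale, from 57.6 to 63.7 FPKM in NC24h to 38.4 to 39.9 FPKM in NC36h, and WASF2, the more abundant of the WAVE genes with a row, fell by 0.38, from 97.8 to 101 FPKM to 74.9 to 77.9 FPKM. WASF3 (ENSSSCG00000009300, chromosome 11: 4261121 to 4366258), another WAVE protein, measured 5.53, 6.03 and 7.03 FPKM across NC24h replicates 4, 5 and 6, and 7.36, 9.15 and 9.13 FPKM in NC36h. The groups did not overlap, but the highest NC24h and the lowest NC36h library were close. Its mean went from 6.20 ± 0.767 to 8.55 ± 1.03 FPKM (SD, n = 3), a log2 change of 0.41 ± 0.12 SE (limma, Benjamini-Hochberg adjusted p = 0.0272). That call was lost without NC24h replicate 4 or 5 or NC36h replicate 5 or 6, with log2 changes of 0.34, 0.39, 0.36 and 0.36. The WASF3 to WASF2 ratio was 0.0553, 0.0600 and 0.0719 in NC24h and 0.0979, 0.122 and 0.117 in NC36h, so WASF3 remained the minor form. BRK1, a small WAVE complex subunit, was at -0.27 (-0.38 and called without NC24h replicate 4) and WASL, the neural WASP, at -0.18. ABI1, an adaptor of the same complex, had 3 to 6 fragments per NC24h library and 4 to 15 per NC36h library, under the minimum for a test.

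Formins moved in both directions. Of 7 tested, DIAPH3, FMNL2 and DIAPH2 were lower, FHOD3 and FHOD1 were higher, and DIAPH1 and FMNL3 did not pass. FHOD3 is known as the formin of striated muscle sarcomeres, while DIAPH3 and FMNL2 are formins of the cell cortex and of protrusions.

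FMNL2 (ENSSSCG00000015866, chromosome 15: 60054300 to 60384666) measured 10.4, 11.2 and 16.9 FPKM across NC24h replicates 4, 5 and 6, and 5.52, 5.22 and 4.72 FPKM in NC36h. All NC36h libraries were lower, and replicate 6 of NC24h was the highest. The mean was 12.8 ± 3.55 and then 5.15 ± 0.404 FPKM (SD, n = 3), 2.49-fold lower (log2 change -1.14 ± 0.17 SE, limma, Benjamini-Hochberg adjusted p = 0.00281). DIAPH3 (ENSSSCG00000009448, chromosome 11: 32492735 to 32994854) measured 1.02, 2.66 and 5.32 FPKM in NC24h and 0.40, 0.351 and 0.604 FPKM in NC36h, from 27, 68 and 137 fragments and from 13, 12 and 17. Its NC24h libraries were spread over 5.21-fold, the widest spread among tested members, in the same order as the cell cycle markers. The mean went from 3.0 ± 2.17 to 0.451 ± 0.134 FPKM (SD, n = 3), 6.65-fold lower, a log2(FPKM + 1) change of -1.32 ± 0.38 SE that understates the fall of so low a gene (limma, Benjamini-Hochberg adjusted p = 0.0273). The DIAPH3 call was lost without NC24h replicate 5 or any 1 of the NC36h replicates, at log2 changes of -1.39 to -1.27. Without NC24h replicate 6 its call held at -0.91, and the fold of the means went from 6.65 to 4.07. DIAPH2 was at -0.40, and its call was lost under both other scalings, at -0.25 and -0.21, and without NC36h replicate 4 or 6, at -0.38 and -0.37.

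FHOD3 (ENSSSCG00000027935, chromosome 6: 120036824 to 120585987) measured 54.3, 50.2 and 35.6 FPKM across NC24h replicates 4, 5 and 6, and 81.7, 79.0 and 75.8 FPKM in NC36h. All NC36h libraries were higher, and NC24h replicate 6 was the lowest. The mean rose from 46.7 ± 9.80 to 78.8 ± 2.94 FPKM (SD, n = 3), 1.69-fold (log2 change 0.76 ± 0.15 SE, limma, Benjamini-Hochberg adjusted p = 0.00654). FHOD1 (ENSSSCG00000026116, chromosome 6: 27867499 to 27883077), its broadly expressed paralogue, measured 18.6, 19.8 and 17.9 FPKM in NC24h and 21.4, 21.8 and 25.1 FPKM in NC36h. The groups were separate but close, with means of 18.7 ± 0.936 and 22.7 ± 2.05 FPKM (SD, n = 3) and a log2 change of 0.26 ± 0.08 SE (limma, Benjamini-Hochberg adjusted p = 0.0347). The FHOD1 call was lost when any 1 library other than NC36h replicate 4 was left out, at log2 changes of 0.19 to 0.30. Within a library, FHOD3 was 1.99 to 2.92 times FHOD1 in NC24h and 3.02 to 3.82 times in NC36h.

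All 9 tested members of monomer binding and filament turnover passed the test, with 6 lower and 3 higher, where 50.9% of all genes passed. This role held the most abundant members. TMSB10 and TMSB4X, the thymosins that sequester actin monomers, and CFL1 had the highest mean levels of all members, in that order, at both times. The summed level of the role was 5082, 5493 and 6871 FPKM in NC24h and 3524, 3934 and 4146 FPKM in NC36h.

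CORO1C (ENSSSCG00000009944, chromosome 14: 42062468 to 42145130), a coronin of lamellipodia that binds Arp2/3 and filaments, measured 25.6, 30.6 and 46.6 FPKM across NC24h replicates 4, 5 and 6, and 11.2, 10.7 and 10.7 FPKM in NC36h. The NC36h libraries were almost alike and all lower. On average it went from 34.3 ± 11.0 to 10.9 ± 0.303 FPKM (SD, n = 3), 3.16-fold lower (log2 change -1.53 ± 0.20 SE, limma, Benjamini-Hochberg adjusted p = 0.00182). CAP1 (ENSSSCG00000003672, chromosome 6: 95811485 to 95840576), a cyclase-associated protein that recycles cofilin-bound monomers, measured 54.7, 61.9 and 101 FPKM in NC24h and 28.9, 30.3 and 30.3 FPKM in NC36h. Here too the highest library was NC24h replicate 6 and the NC36h libraries lay together. Its mean went from 72.7 ± 25.2 to 29.8 ± 0.780 FPKM (SD, n = 3), 2.44-fold lower (log2 change -1.20 ± 0.21 SE, limma, Benjamini-Hochberg adjusted p = 0.00455). Without NC24h replicate 6 the CAP1 log2 change was -0.94, and the fold of the means went from 2.44 to 1.95. CORO6, a coronin known from muscle and brain (ENSSSCG00000017792, chromosome 12: 45806007 to 45814594), went the other way, with 20.8, 21.7 and 22.5 FPKM in NC24h and 34.5, 30 and 27.7 FPKM in NC36h. Its groups did not overlap, and the mean rose from 21.7 ± 0.872 to 30.7 ± 3.48 FPKM (SD, n = 3), 1.42-fold (log2 change 0.48 ± 0.09 SE, limma, Benjamini-Hochberg adjusted p = 0.00573). CORO2B was at -0.32, and this call was lost under median-ratio scaling, at -0.15.

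The cofilins changed in opposite directions. CFL1 (ENSSSCG00000012974, chromosome 2: 6471558 to 6475019), the non-muscle cofilin, measured 774, 918 and 1258 FPKM across NC24h replicates 4, 5 and 6, and 405, 460 and 511 FPKM in NC36h. All NC36h libraries were lower, and the mean went from 984 ± 249 to 458 ± 53.3 FPKM (SD, n = 3), 2.15-fold lower (log2 change -1.08 ± 0.18 SE, limma, Benjamini-Hochberg adjusted p = 0.00407). CFL2 (ENSSSCG00000001959, chromosome 7: 65090170 to 65094521), the muscle cofilin, measured 375, 336 and 311 FPKM in NC24h and 429, 466 and 418 FPKM in NC36h. All NC36h libraries were higher, and the mean rose from 340 ± 32.5 to 438 ± 25.3 FPKM (SD, n = 3), 1.29-fold (log2 change 0.36 ± 0.09 SE, limma, Benjamini-Hochberg adjusted p = 0.0148). The CFL2 call was lost without NC24h replicate 5 or NC36h replicate 5, at log2 changes of 0.36 and 0.32. The ratio of CFL2 to CFL1 was 0.484, 0.365 and 0.247 in NC24h and 1.06, 1.01 and 0.817 in NC36h, so the muscle form went from the clear minority to about the level of CFL1.

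Monomer-binding genes were split as well. TMSB4X (ENSSSCG00000012119, chromosome X: 9649516 to 9651662) measured 1254, 1365 and 1846 FPKM across NC24h replicates 4, 5 and 6, and 767, 837 and 968 FPKM in NC36h. The groups did not overlap, and replicate 6 was the highest in each group. The mean was 1488 ± 315 and then 857 ± 102 FPKM (SD, n = 3), 1.74-fold lower (log2 change -0.78 ± 0.16 SE, limma, Benjamini-Hochberg adjusted p = 0.00818). TMSB10 fell by 0.53 on the log2 scale, less than TMSB4X, but under quantile normalization by 0.80 against 0.72. On the FPKM scale it was 1.71 to 1.95 times TMSB4X in NC24h and 2.10 to 2.32 times in NC36h. PFN1 (ENSSSCG00000017907, chromosome 12: 51962642 to 51965570), the profilin that feeds monomers to formins, measured 96.9, 97.4 and 95.3 FPKM in NC24h and 127, 123 and 119 FPKM in NC36h. Its libraries were tight within each group, and the mean rose from 96.5 ± 1.10 to 123 ± 3.93 FPKM (SD, n = 3), 1.28-fold (log2 change 0.35 ± 0.05 SE, limma, Benjamini-Hochberg adjusted p = 0.00296). CFL1, PFN1 and the thymosins have near-identical copies elsewhere in mammalian genomes, and how shared reads were counted is not given in the sources used here, so their levels are uncertain to that extent.

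**Figure D2:**
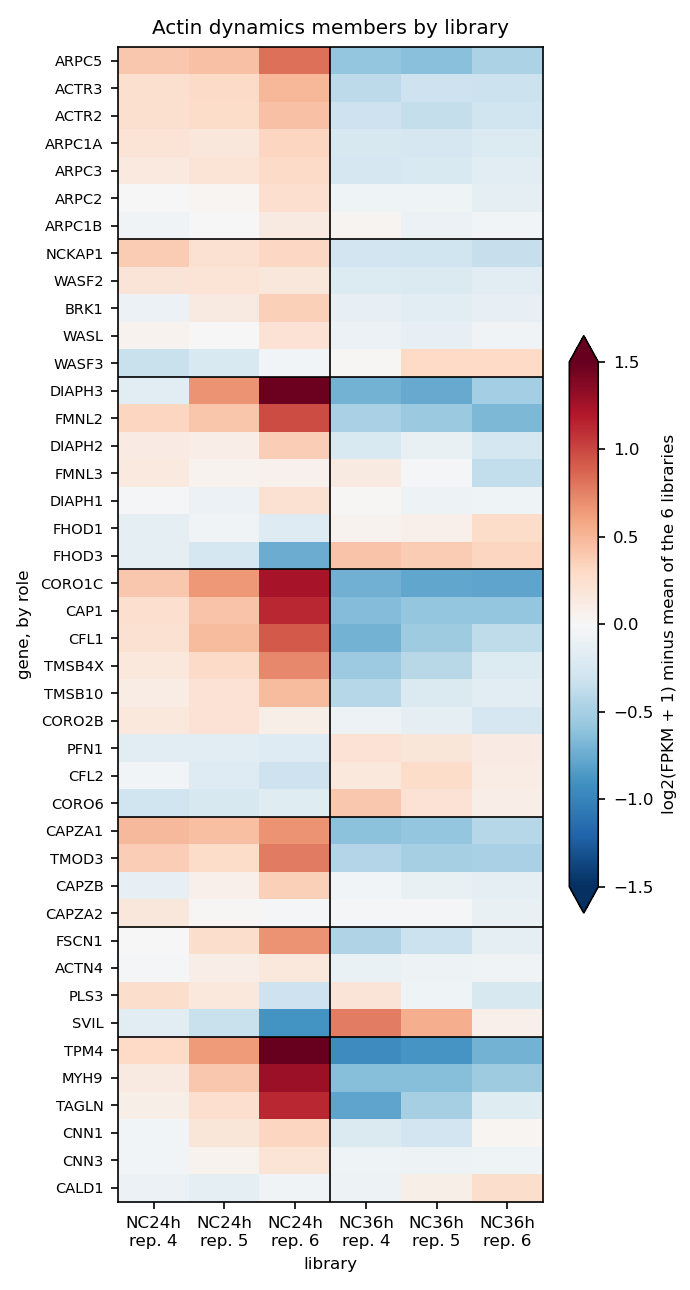
Level of each tested member in each of the 6 libraries, as log2(FPKM + 1) minus the gene's mean over the libraries, with red above and blue below that mean and horizontal lines between roles. NC24h replicate 6 is the deepest red in 19 of the 22 members that were lower in NC36h, and the 3 NC36h libraries resemble each other more.

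The map of all members by library shows NC24h replicate 6 at the extreme of most genes. The groups did not overlap in any of the 29 called members, so leaving that library out could not change a sign. NC24h replicate 6 was the highest of the 6 in 19 of the 22 members that were lower in NC36h and the lowest in 5 of the 7 that were higher. Within NC24h the highest library exceeded the lowest by a median of 1.26-fold over the members, against 1.11-fold within NC36h.

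Capping and severing genes were represented by 4 tested members, of which CAPZA1 and TMOD3 were lower and CAPZA2 and CAPZB did not pass. CAPZA1 (ENSSSCG00000006775, chromosome 4: 107769570 to 107821806), an alpha subunit of the capping protein that blocks the fast-growing filament end, measured 82.5, 80.3 and 94.2 FPKM across NC24h replicates 4, 5 and 6, and 38.0, 38.7 and 43.3 FPKM in NC36h. The groups were far apart for their spread. Its average went from 85.7 ± 7.48 to 40.0 ± 2.88 FPKM (SD, n = 3), 2.14-fold lower (log2 change -1.08 ± 0.09 SE, limma, Benjamini-Hochberg adjusted p = 0.000692), and this was the lowest adjusted p of the members. CAPZA2, the alternative alpha subunit, was at -0.10 and CAPZB, their shared beta subunit, at -0.20 (-0.31 and called without NC24h replicate 4), and CAPZA2 turned to 0.069 under median-ratio scaling. The ratio of CAPZA2 to CAPZA1 was 0.670, 0.616 and 0.510 in NC24h and 1.27, 1.25 and 1.05 in NC36h, so CAPZA1 was the more abundant of the pair in every NC24h library and CAPZA2 in every NC36h library.

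TMOD3 (ENSSSCG00000004626, chromosome 1: 119864878 to 119948795), the broadly expressed tropomodulin that caps the slow-growing end, measured 10.6, 9.90 and 14.5 FPKM in NC24h and 5.64, 5.39 and 5.47 FPKM in NC36h. All NC36h libraries were lower and nearly alike. Average levels went from 11.7 ± 2.48 to 5.50 ± 0.131 FPKM (SD, n = 3), 2.12-fold lower (log2 change -0.95 ± 0.14 SE, limma, Benjamini-Hochberg adjusted p = 0.00242). Its neighbour TMOD2, a neuronal tropomodulin 7787 bases further along chromosome 1, had 8, 8 and 10 fragments in NC24h and 2 in each NC36h library, under the minimum for a test.

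Crosslinkers and bundlers moved in both directions. Of 4 tested, FSCN1 was lower, SVIL was higher, and ACTN4 and PLS3 did not pass, with a median log2 change of -0.11 (0.06 after median-ratio scaling). These calls were 25% in each direction, against 34.4% lower and 16.5% higher among all genes. SVIL (ENSSSCG00000011022, chromosome 10: 41176358 to 41462750), supervillin, which ties actin and myosin to the membrane and has a muscle isoform, measured 25.1, 22.5 and 14.9 FPKM across NC24h replicates 4, 5 and 6, and 49.2, 42.1 and 30.1 FPKM in NC36h. All NC36h libraries were higher, with replicate 6 the lowest in each group. The mean rose from 20.8 ± 5.33 to 40.5 ± 9.65 FPKM (SD, n = 3), 1.94-fold (log2 change 0.93 ± 0.24 SE, limma, Benjamini-Hochberg adjusted p = 0.0165), the largest rise among the members. The SVIL call was lost without NC36h replicate 4 or 5, at log2 changes of 0.78 and 0.89. FSCN1, the fascin of filopodial bundles, was at -0.61, and its call was lost under median-ratio scaling, at -0.44, and without NC24h replicate 5 or NC36h replicate 4 or 5, at -0.64, -0.54 and -0.61. The non-muscle alpha-actinin ACTN4 was at -0.15 and the plastin PLS3 at -0.07, and both turned positive under median-ratio scaling, at 0.024 and 0.10. LCP1, the leukocyte plastin, had 1 or 2 fragments in every library.

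Of 6 tested genes of non-muscle myosin and side-binding proteins, TPM4, MYH9 and TAGLN were lower, and CALD1, CNN1 and CNN3 did not pass. TPM4 (ENSSSCG00000013849, chromosome 2: 61453721 to 61476781), a tropomyosin of stress fibres, measured 231, 293 and 573 FPKM across NC24h replicates 4, 5 and 6, and 97.5, 101 and 115 FPKM in NC36h. Every NC36h library lay far below the lowest NC24h library, and replicate 6 stood far above the other NC24h libraries. The mean went from 366 ± 182 to 104 ± 9.08 FPKM (SD, n = 3), 3.50-fold lower (log2 change -1.69 ± 0.31 SE, limma, Benjamini-Hochberg adjusted p = 0.00514). Among members ordered by mean level, TPM4 went from rank 4 to rank 15. Without NC24h replicate 6 its log2 change was -1.31.

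MYH9 (ENSSSCG00000000145, chromosome 5: 11365603 to 11456475), a heavy chain of non-muscle myosin II, measured 167, 202 and 373 FPKM in NC24h and 97.6, 97.4 and 105 FPKM in NC36h. The order of the NC24h libraries was that of TPM4, and all NC36h libraries were lower. The mean went from 247 ± 110 to 100 ± 4.45 FPKM (SD, n = 3), 2.47-fold lower (log2 change -1.21 ± 0.27 SE, limma, Benjamini-Hochberg adjusted p = 0.0109), and the log2 change without NC24h replicate 6 was -0.87. TAGLN (ENSSSCG00000015073, chromosome 9: 44561756 to 44567385), the smooth muscle transgelin that is also made by activated fibroblasts and myoblasts, measured 193, 218 and 400 FPKM in NC24h and 105, 129 and 160 FPKM in NC36h. The groups did not overlap, and the mean went from 270 ± 113 to 131 ± 27.7 FPKM (SD, n = 3), 2.06-fold lower (log2 change -0.98 ± 0.29 SE, limma, Benjamini-Hochberg adjusted p = 0.0277). The TAGLN call was lost without NC36h replicate 4 or 5, at -0.83 and -0.98, and under median-ratio scaling, at -0.81. It held without NC24h replicate 6, but at -0.66, and the fold of the means went from 2.06 to 1.56. Caldesmon CALD1 was the member of this role with a positive value, at 0.19, and it was called under median-ratio scaling, at 0.36, and without NC36h replicate 4, at 0.27. The calponins CNN1 and CNN3 were at -0.31 and -0.14, and CNN3 turned to 0.035 under median-ratio scaling.

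Ratios between related members within a library do not depend on a scaling factor applied to the whole library, though they do change under quantile normalization. Of 16 pairs, both genes were tested in 8, and the NC24h and NC36h ratios did not overlap in any of the 8, where single genes did not overlap in 63.6% of all those tested and no share was taken over other pairs. The order of the genes in a pair was set by hand, so the sign of a difference has meaning only for its own pair. The ratio of DIAPH2 to DIAPH1 went from between 0.641 and 0.661 to between 0.468 and 0.552. The largest difference of the mean log2 ratio was 1.44, for CFL2 to CFL1, followed by 1.06 for FMNL3 to FMNL2, 0.99 for CAPZA2 to CAPZA1, 0.85 for WASF3 to WASF2, 0.50 for FHOD3 to FHOD1, 0.42 for ARPC1B to ARPC1A and 0.25 for TMSB10 to TMSB4X, and that of DIAPH2 to DIAPH1 was -0.37. With 3 libraries against 3, the two-sided exact permutation test gave p = 0.1 for each of the 8 pairs, also after Benjamini-Hochberg adjustment, and this is the smallest p the design allows. Leaving out 1 library cannot make groups meet that do not overlap, so it was no further check. Under quantile normalization the difference between the log2 changes of a pair kept its sign in 7 pairs and turned to -0.08 for TMSB10 to TMSB4X.

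**Figure D3:**
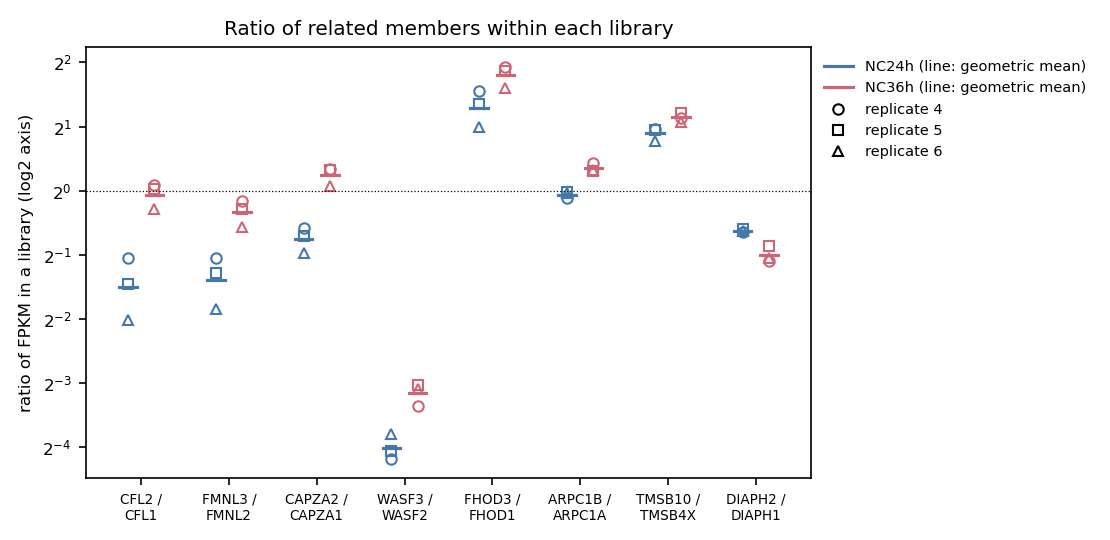
Ratio of the FPKM values of 8 pairs of related members in each library, on a log2 axis, with NC24h in blue, NC36h in red, a symbol for each replicate number and a line at the geometric mean of each group. The groups are apart in every pair, and CFL2 to CFL1 moved furthest, from 0.247 to 0.484 up to 0.817 to 1.06.

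Actin genes themselves and further genes of the pathway were read from the same fit. Of 89 listed genes beside the members, 60 had a row and all were tested, with 16 higher (26.7%) and 24 lower (40.0%), against 16.5% and 34.4% of all genes. Under median-ratio scaling these were 17 higher and 16 lower. The summed level of the 6 actins was 16834 to 17332 FPKM in NC24h and 21079 to 22674 FPKM in NC36h, without overlap.

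The cytoplasmic actins ACTB and ACTG1 were lower and the sarcomeric ones higher. ACTB measured 2119, 2439 and 3441 FPKM across NC24h replicates 4, 5 and 6, and 1106, 1312 and 1557 FPKM in NC36h (log2 change -0.99 ± 0.21 SE, limma, Benjamini-Hochberg adjusted p = 0.00795). ACTG1 was at -0.72, and it was no longer called without NC36h replicate 4 or 5, at -0.64 and -0.72. ACTA1, the skeletal muscle actin, measured 1853, 1425 and 467 FPKM in NC24h and 5885, 5819 and 5012 FPKM in NC36h (log2 change 2.37 ± 0.48 SE, limma, Benjamini-Hochberg adjusted p = 0.00711). In each time the library with the most ACTB had the least ACTA1. ACTC1, the cardiac actin that developing skeletal muscle also makes, was the most abundant actin in every library and was at 0.44, a call lost without the filter on low values, at 0.44, under quantile normalization, at 0.23, and without NC24h replicate 5 or any 1 of the NC36h replicates, at 0.41 to 0.50. The low-level ACTG2 was at -0.67, a call lost without NC36h replicate 5, at -0.58, and the smooth muscle actin ACTA2 did not pass, at 0.05.

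Of 7 listed genes of the actin-sensing MRTF and SRF axis, only 3 were tested. Of these, 2 were higher (66.7%, against 16.5% of all genes) and 1 did not pass. MRTFA, the coactivator that actin monomers hold in the cytoplasm, went from 14.7, 16.5 and 16.6 FPKM to 31.9, 31.9 and 31.1 FPKM, 1.99-fold (log2 change 0.95 ± 0.07 SE, limma, Benjamini-Hochberg adjusted p = 0.000662). SRF, its DNA-binding partner, was at 0.26, and its call was lost without NC24h replicate 5 or any 1 of the NC36h replicates, at 0.25 to 0.28.

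Among 25 other actin regulators, 6 were higher (24%) and 13 were lower (52%), against 16.5% and 34.4% of all genes. The largest falls were those of the coronin CORO2A, at -1.86, the scaffold IQGAP1, at -1.68, and the formin DAAM2, at -1.05. The largest rises were those of the LIM protein ABLIM1, at 1.10, the non-muscle myosin MYH14, at 0.94, and the twinfilin TWF2, at 0.77. Of the 7 tested striated muscle actin-binding paralogues, 6 were higher (85.7%, against 16.5% of all genes), and all 7 log2 changes were above 0. Their largest called rises were for the alpha-actinin ACTN2, at 1.5, the tropomyosin TPM2, at 1.21, and the tropomodulin TMOD4, at 1.04. The leiomodin LMOD2 did not pass, at 1.09. The ACTN2 call was lost without NC36h replicate 4 or 5, at 1.39 and 1.46.

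**Figure D4:**
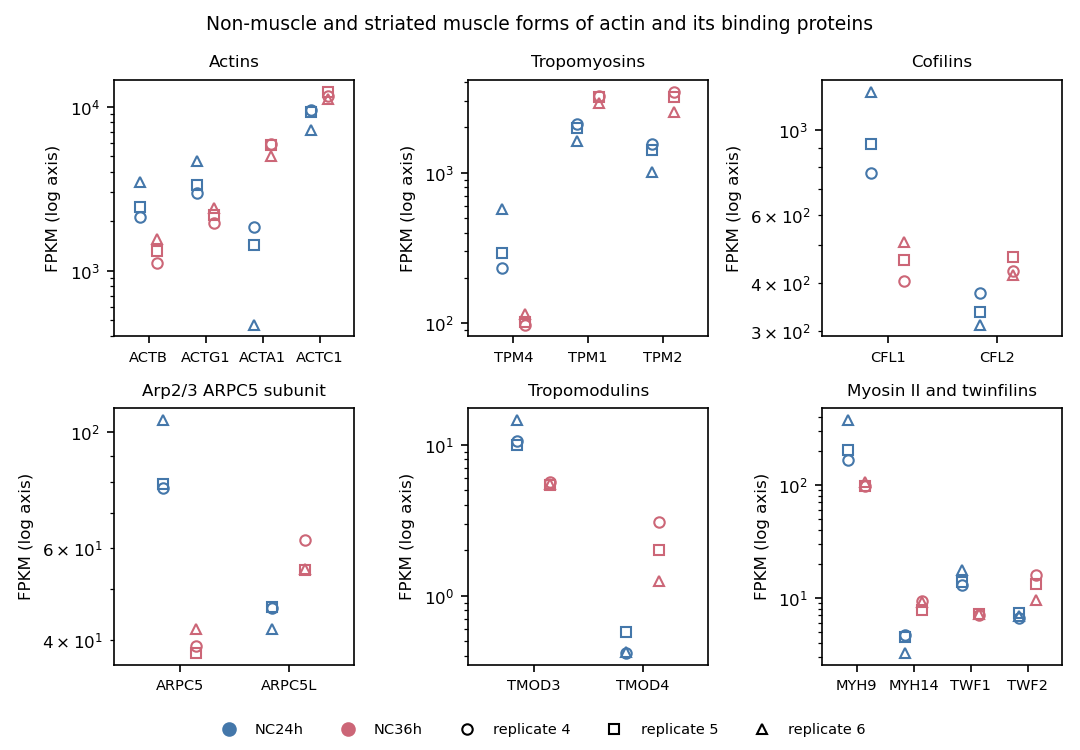
FPKM in each library, on log axes that differ between panels, for non-muscle and muscle forms of actin, tropomyosin, cofilin, tropomodulin and related genes, with NC24h in blue, NC36h in red and a symbol for each replicate number. ACTB, ACTG1, TPM4, CFL1, ARPC5, TMOD3, MYH9 and TWF1 are lower in every NC36h library than in any NC24h library, and ACTA1, ACTC1, TPM1, TPM2, CFL2, ARPC5L, TMOD4, MYH14 and TWF2 are higher.

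A further 5 ratios between a member or pathway gene and a related gene were taken after their values had been seen, and they are given without a test. ARPC5L to ARPC5, the alternative forms of one Arp2/3 subunit, was 0.59, 0.581 and 0.40 across NC24h replicates 4, 5 and 6, and 1.59, 1.44 and 1.30 in NC36h. ACTA1 to ACTB was 0.874, 0.584 and 0.136 in NC24h and 5.32, 4.44 and 3.22 in NC36h. In both pairs the more abundant gene differed between the times in all 6 libraries. TPM1 to TPM4 went from 9.11, 6.74 and 2.82 to 33.3, 31.7 and 25.3, and TWF2 to TWF1 from 0.513, 0.534 and 0.391 to 2.27, 1.82 and 1.33. MYH14 remained far below MYH9, with ratios of 0.00865 to 0.0278 in NC24h and 0.0801 to 0.0949 in NC36h. The plot of actins and actin-binding genes by library shows these genes side by side.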

How the data were processed

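RNA-seq of 6 PSC libraries, 3 per time, was analysed. The authors deposited 1 table of FPKM values per gene, normalized for gene length and sequenced fragments. Their processing notes name TopHat2, Cufflinks and HTSeq, while the study's methods name HISAT2, StringTie and HTSeq, both with Sscrofa11.1. StringTie was run with default settings, and how counting handled strand is not given in the sources used here. Groups were taken from the differentiation time in the labels, and NC treatment from the study's naming of the N libraries. The later group is labelled 48 h and called 36 h in the series title.

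Symbols were paired with Ensembl identifiers through a reference table, which matched 11804 identifiers. The highest identifier number in the expression table was 31070. Of the 14 members without a row, 9 carry a later number in the reference table and 5 are not in it. Coordinates are those of RefSeq Sscrofa11.1, and gene sequences were not used here.

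Values were taken as log2(FPKM + 1), so fold changes of low genes are understated. The 14060 genes with a mean of at least 1 FPKM were tested two-sided with limma 3.58.1 (R 4.3.3, eBayes with trend) and Benjamini-Hochberg adjustment over all of them, at a threshold of 0.05. Fold values in the text are ratios of mean FPKM. Pairs of related genes were compared by exact permutation (scipy 1.17.1). FPKM steps gave whole fragments in all 6 libraries for 19543 of 19543 genes above 0 in 3 or more libraries, within a tolerance of 0.02 fragments. The search over multiples was wide, so for genes above 0 in few libraries this was easily reached and is a weak check. The implied gene length was at first whole, within 0.05, for 99.1% of these genes. The voom fit on the recovered fragments called 7242 genes. Fits were repeated after median-ratio scaling or quantile normalization, with a replicate block, with voom, without each library in turn, with eBayes lacking the trend, with pseudocounts of 0.1 or 0.01, and with either a minimum of 5 FPKM or none. The fit was tested on simulated data.

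The members, pathway lists, markers and pairs were chosen with earlier results of these data known. Named in full were the 12 largest falls and all rises past the threshold (7, of up to 12), and of each pathway list up to 3 rises and 3 falls. The results of 1 of the pathway lists are not reported here.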

Additional observations from a re-analysis of the deposited data

How the results depend on the processing

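Of the 29 members that differed, 20 did so in all 15 alternatives (3 higher and 17 lower), and none of the 29 changed sign. In the fits that leave out 1 library the sign could not change, as the groups did not overlap in these members. Leaving out 1 library gave 4881 to 7268 genes, 22 to 29 members and 26 to 41 other pathway genes, where all 6 libraries gave 7156, 29 and 40. The count of 26 pathway genes came without NC36h replicate 5, with 10 higher and 16 lower. The 8 pairs stayed apart with a pseudocount of 1 on both genes, while leaving out 1 library could not have brought them together. Their differences under quantile normalization were added after seeing the data, and that of TMSB10 to TMSB4X turned from 0.25 to -0.078. Median-ratio scaling gave 3367 higher and 3136 lower genes in place of 2322 and 4834, and quantile normalization 3039 and 3542.

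Values that changed sign belonged to members that did not pass. Under median-ratio scaling the log2 change was 0.11 for ARPC1B, 0.076 for DIAPH1, 0.069 for CAPZA2, 0.024 for ACTN4, 0.10 for PLS3 and 0.035 for CNN3. Under quantile normalization it was 0.073 for DIAPH1 and 0.013 for FMNL3. Leaving out 1 library gave -0.15 to 0.012 for DIAPH1, where the positive value came without NC24h replicate 6, and -0.24 to 0.041 for PLS3, where positive values came without NC24h replicate 4 or NC36h replicate 6. The cause was not tested.

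Same-numbered libraries of the groups correlated in their deviations at 0.15, -0.02 and 0.18, and pairing by number was therefore not assumed. With a replicate block 7034 genes, 28 members (6 higher and 22 lower) and 41 other pathway genes were called, and the member lost was FHOD1, at 0.26. For the 8 pairs the block was no further check, as groups that do not overlap fix the direction within every replicate number. Low counts kept 3 members, TMOD2, ABI1 and LCP1, under the minimum for a test.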
